A study of Homo sapiens with 6 samples.

Results

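Prostanoids are made from arachidonate that phospholipase A2 frees from membrane lipids. The cyclooxygenases PTGS1 and PTGS2 convert arachidonate to prostaglandin H, terminal synthases turn this into prostaglandin E, prostaglandin D, prostacyclin or thromboxane, and HPGD inactivates prostaglandin E by oxidation. PTGS1 is expressed constitutively in many tissues and PTGS2 is induced by growth signals and cytokines, and colorectal tumours commonly gain PTGS2 and lose HPGD. The genes examined here are PLA2G4A (cytosolic phospholipase A2), PTGS1, PTGS2, the prostaglandin E synthases PTGES, PTGES2 and PTGES3, PTGDS (prostaglandin D synthase), PTGIS (prostacyclin synthase), TBXAS1 (thromboxane synthase) and HPGD. They were chosen by function, and each was read from every probe set whose platform annotation names that gene alone. This gave 23 probe sets for the 10 genes, of 54675 probe sets for 19775 genes on the array.

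The samples were HT29 cells, a human colon adenocarcinoma line, on HG-U133 Plus 2.0 arrays. The 3 samples labelled NS398-treated had received NS398, a selective inhibitor of the COX2 enzyme that PTGS2 encodes, and the 3 samples labelled control had not. According to the methods of the study both groups were kept in serum-free medium, and the controls received the solvent DMSO. The labels give no dose, time or culture batch. The methods give a single dose and time for these arrays and call the samples of a group biological replicates, without saying how the cultures were run. Values are linear probe set signals. Differences are log2 values, NS398 minus control, with their standard error (SE), and group levels are geometric means of 3 arrays. Directions follow the deposited labels. The list of changed transcripts that accompanied the study places PTGS2 and several other transcripts on the side opposite to the one found here, and the source of this difference was not tested.

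The median signal was 76 to 80.2 in the NS398 arrays and 65 to 80.1 in the control arrays. As a mark of background, 3 Bacillus control probe sets, here called trpX, gave 3.2 to 49.9 (median 11.8, 18 values). Their target has no transcript in the samples. Across the 22399 brighter probe sets (mean log2 signal over 7), arrays of the same group correlated at r = 0.961 to 0.983 and arrays of different groups at r = 0.931 to 0.952. The 3'/5' ratio of the ACTB control probe sets, which rises as RNA degrades, was 1.45 to 1.71 in NS398 arrays and 1.27 to 1.32 in control arrays (two-sided exact permutation p = 0.1, the lowest that 3 against 3 can reach). The same ratio for GAPDH overlapped, with 1.04 to 1.21 in NS398 arrays and 0.969 to 1.08 in control arrays (exact permutation p = 0.5). A control probe set for 18S ribosomal RNA gave 23625, 12397 and 4825 in NS398 arrays, against 3453, 3783 and 4856 in control arrays. These groups overlapped through NS398 replicate 3 (exact permutation p = 0.2). Of 12 epithelial markers 8 had a mean log2 signal above 7, namely EPCAM, KRT8, KRT18, KRT19, CDH1, KRT20, LGALS4 and VIL1. The intestinal markers CDX1, CDX2 and CDH17 had group means within the trpX range. On their brightest probe sets KRT20 (mean signal 17811 in NS398 and 8022 in control arrays), LGALS4 (32429 and 24959) and GPA33 (111 and 37.1) were called higher. VIL1 (2030 and 3313) was called lower (limma adjusted p 0.000169 to 0.0464 for these 4). Signals above 7 were found for 1 of 8 fibroblast, 0 of 6 leukocyte, 1 of 5 endothelial and 0 of 4 platelet markers. In those lists the fibroblast gene LUM rose (mean signal 215 in NS398 and 45.5 in control arrays), while COL1A1 had 1 probe set that fell (42.9 in NS398 and 245 in control arrays, difference -2.51) and a brighter one at 423 in NS398 and 303 in control arrays that did not pass. The control means of LUM and GPA33, and the NS398 mean of the COL1A1 probe set that fell, lay within the trpX range. FAP averaged 72.0 in NS398 and 185 in control arrays (-1.36, limma adjusted p = 0.201), and no leukocyte, endothelial or platelet gene was called. The summed signal of these lists was 157792 to 165949 in NS398 and 132395 to 149942 in control arrays for epithelium, 890 to 1050 and 673 to 975 for fibroblasts, 143 to 232 and 111 to 175 for leukocytes, 234 to 300 and 172 to 301 for endothelium, and 162 to 373 and 104 to 216 for platelets, and their part in the results was not tested. In bulk RNA, fewer cells of a type and less RNA per cell cannot be told apart.

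The sequences before the transcription starts of PLA2G4A, PTGS2 and HPGD are shown because these genes stand for the release, oxidation and breakdown steps and because PTGS2 had the largest difference among the 13 member probe sets whose mean log2 signal exceeded 7. Each runs 5′ to 3′ on the strand of the gene and holds the 250 bases before a RefSeq start in GRCh38.p14. PLA2G4A lies at chr1:186828699-186828948 on the plus strand, PTGS2 at chr1:186680424-186680673 on the minus strand, and HPGD, which has 2 such windows, at chr4:174522489-174522738 on the minus strand. Capitals mark matches on either strand to a TATA box (TATAAA), a GC box (GGGCGG), a C/EBP site (TTNNGCAAT), an NF-kB site (its standard consensus), a CRE half-site (CGTCA) or an E box (CACGTG), and no 2 matches overlap in these windows.
PLA2G4A: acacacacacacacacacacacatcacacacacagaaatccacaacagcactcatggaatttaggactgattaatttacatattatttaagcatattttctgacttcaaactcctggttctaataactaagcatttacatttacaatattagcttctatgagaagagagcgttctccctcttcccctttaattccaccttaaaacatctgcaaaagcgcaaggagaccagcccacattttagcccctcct
PTGS2: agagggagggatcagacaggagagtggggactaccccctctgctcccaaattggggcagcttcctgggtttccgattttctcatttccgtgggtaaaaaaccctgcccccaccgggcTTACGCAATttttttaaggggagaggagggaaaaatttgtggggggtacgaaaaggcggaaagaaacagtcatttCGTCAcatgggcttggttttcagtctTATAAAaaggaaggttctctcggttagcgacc
HPGD: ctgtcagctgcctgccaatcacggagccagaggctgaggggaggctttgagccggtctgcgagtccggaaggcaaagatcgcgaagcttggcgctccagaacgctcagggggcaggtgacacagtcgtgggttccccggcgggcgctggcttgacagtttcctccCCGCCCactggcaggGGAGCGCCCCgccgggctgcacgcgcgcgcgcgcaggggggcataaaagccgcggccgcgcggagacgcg
PTGS2 and PLA2G4A are neighbours on chromosome 1, with only the noncoding RNA gene PACERR annotated between them. The PTGS2 window held a C/EBP match from -133 to -125, a CRE half-site from -58 to -54 and a TATA box from -32 to -27, counted from the start. Among 35116 windows of this length, 9.96% held the NF-kB consensus, 2.04% the C/EBP letters, 21.2% the CRE half-site, 10.7% the TATA box, 42.6% the GC box and 6.34% the E box. Of the 9 genes with a window, PTGS2 was the single one with the C/EBP letters, and the NF-kB consensus occurred for PTGES3 and HPGD. Only full matches to the consensus were marked. The letters gggactaccc in the PTGS2 window come near it and are not marked, and binding was not tested. GC boxes were found for 5 genes, namely PTGS1, PTGES, PTGES2, PTGES3 and HPGD. The printed HPGD window had a GC box from -85 to -80 and an NF-kB match from -70 to -61, and the PLA2G4A window held none of the 6 motifs.

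No member probe set passed the test. By limma with a variance trend and Benjamini-Hochberg adjustment over all probe sets, 0 of the 23 had an adjusted p under 0.05, where 6.43% of all probe sets did (3.26% higher and 3.17% lower, or 1782 and 1731). Centring each array on its median lowered every difference by 0.12, after which 864 of all probe sets were called higher and 1943 lower. Plain limma also called 0, against 0.0439% of all probe sets. At an unadjusted p under 0.05 there were 10 member probe sets, 2 higher and 8 lower, against 18.5% of all probe sets (9.8% higher and 8.69% lower), and plain limma had 8, against 14.6%. The median difference was -0.55 over the 23 probe sets and 0.063 over all probe sets, with 17 members below and 6 above 0. Counting each gene once by its brightest probe set, the median was -0.15, with 6 genes below and 4 above 0. The groups did not overlap in 11 member probe sets, 9 of them lower (39.1%) and 2 higher (8.70%), where 10.8% and 13.4% of all probe sets, and 24.1% in either direction, were so separated. Among the 13 member probe sets whose mean log2 signal exceeded 7, 6 lay lower without overlap (46.2%, against 19.5% of all probe sets that bright) and 0 higher (against 20.5%), so that in either direction 46.2% of these members and 40.1% of all such probe sets were separated. Several of these probe sets report the same gene and are not independent.

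**Figure D1:**
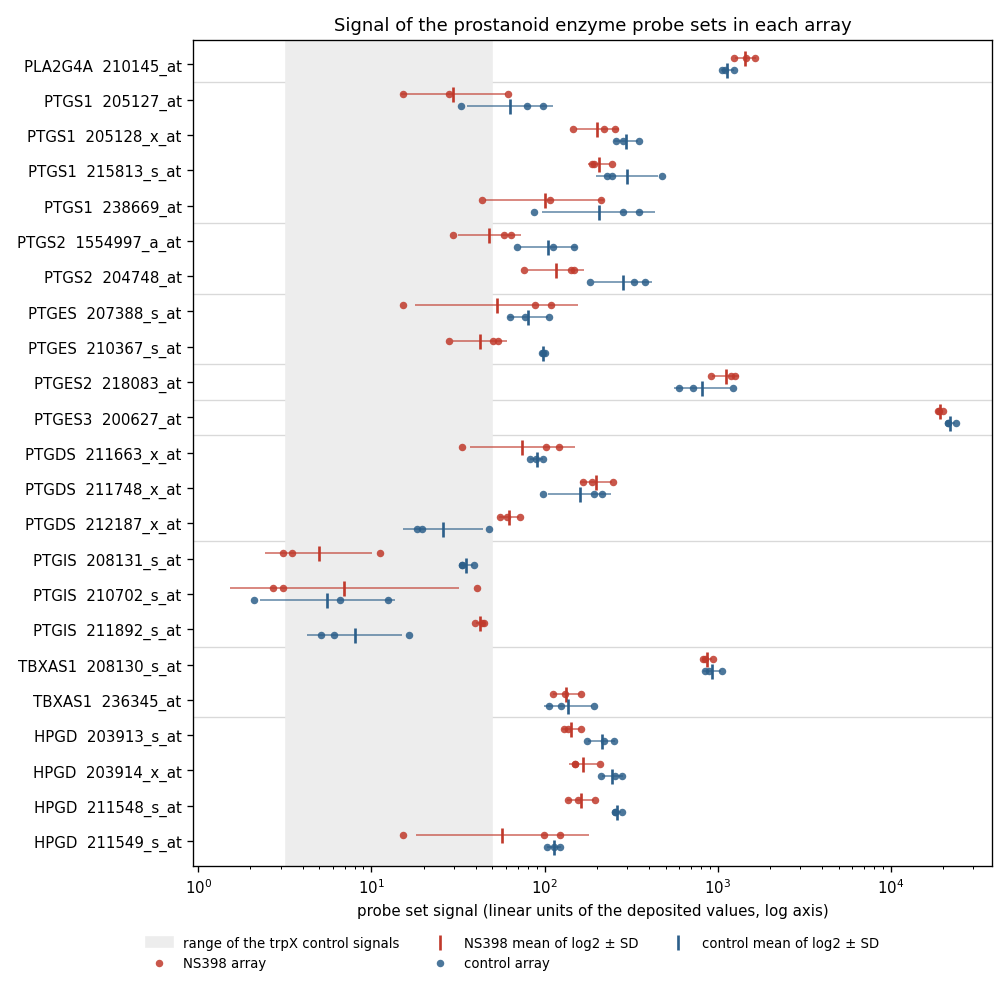
Signal of each of the 23 probe sets (rows) in the NS398 arrays (red, upper points) and control arrays (blue, lower points) on a log axis, with ticks and lines for the mean and SD of 3 arrays, taken on the log2 scale, and the range of the trpX control signals (3.2 to 49.9) shaded. PTGS2 204748_at lies at 76.3 to 147.5 in NS398 and 183.9 to 382.9 in control arrays, and all PTGIS signals lie at or below 44.7.

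PLA2G4A releases arachidonate from phospholipids, the first step of the pathway. Its only probe set, 210145_at, had signals of 1640, 1466.5 and 1244.5 in NS398 arrays, against 1246.7, 1059.1 and 1110.1 in control arrays. The groups overlapped by a narrow margin, since NS398 replicate 3 lay just under control replicate 1. The geometric mean was 1441 in NS398 and 1136 in control arrays, a difference of 0.34 ± 0.14 (SE, 95% interval 0.032 to 0.65, variance-trend limma adjusted p = 0.216).

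PTGS2, the gene of the drug's target, was lower in every NS398 array on both of its probe sets, but neither passed. For 204748_at the signals were 147.5, 141.6 and 76.3 in NS398 arrays, against 183.9, 382.9 and 328.4 in control arrays. Control replicate 1 lay closest to the NS398 arrays, and the spread of the log2 signal was similar in both groups (SD 0.53 in NS398 and 0.56 in control arrays). The means of 117 in NS398 and 285 in control arrays differed by -1.29 ± 0.35 (2.44-fold, 95% interval -2.05 to -0.52, variance-trend limma adjusted p = 0.0532, plain limma adjusted p = 0.262).

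The call for this probe set sat at the threshold and depended on the processing. Its difference kept its sign in 18 of 18 alternatives, from -1.60 to -0.98, and had an adjusted p under 0.05 in 8 of them. By limma it passed after median centring (adjusted p = 0.0231) and quantile normalisation (adjusted p = 0.0390), and with array weights (adjusted p = 0.0299). It also passed when only probe sets with a mean log2 signal over 4 or 7 were tested (limma adjusted p = 0.0361 and adjusted p = 0.0263), with an offset of 32 (adjusted p = 0.0468) and with that offset after median centring (adjusted p = 0.0169). With signals below 16 set to 16 it did not (adjusted p = 0.20). Without control replicate 1 the difference was -1.60 and passed (limma adjusted p = 0.0187), and without any other array it did not (adjusted p 0.0827 to 0.196).

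**Figure D2:**
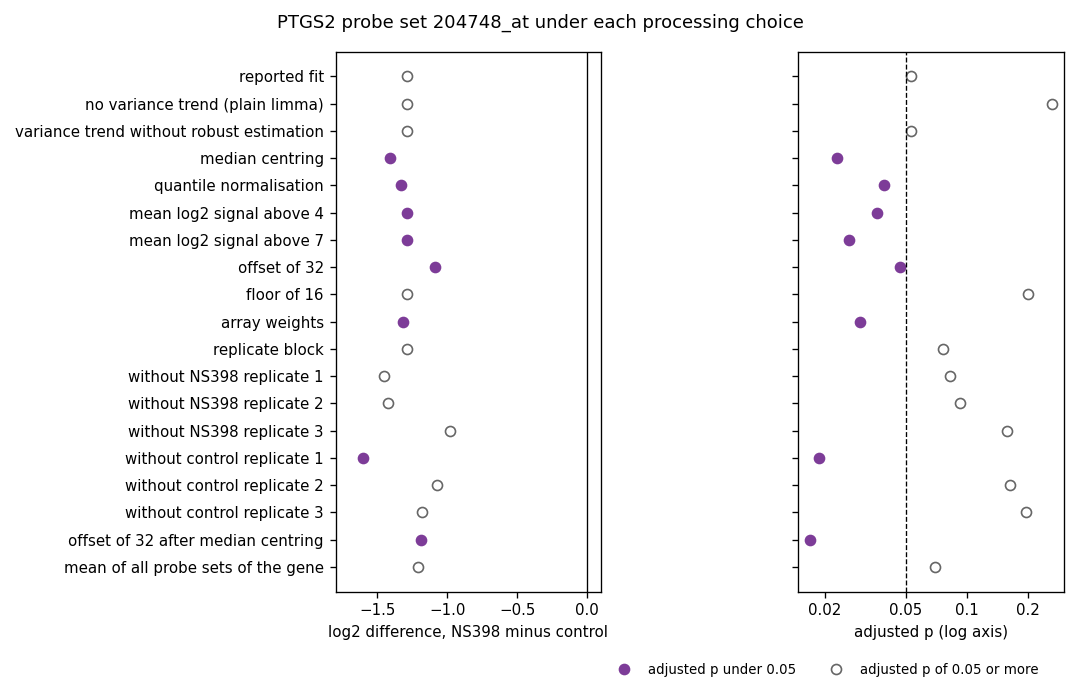
Log2 difference of PTGS2 204748_at, NS398 minus control (left), and its limma adjusted p on a log axis (right) for the reported fit and 18 alternatives (rows), with filled points where the adjusted p is under 0.05 and a dashed line at 0.05. The differences span -1.60 to -0.98 and the adjusted p 0.0169 to 0.262.

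The second PTGS2 probe set, 1554997_a_at, was dimmer. It gave 64.0, 29.7 and 58.0 in NS398 arrays, against 69.7, 147.5 and 112.5 in control arrays. These groups did not overlap either, although 64.0 in NS398 replicate 1 and 69.7 in control replicate 1 were close, and 29.7 lay within the trpX range. The difference of -1.13 ± 0.47 (95% interval -2.16 to -0.097) had an adjusted p of 0.220 by variance-trend limma and passed in 0 of 16 alternatives. The mean over both probe sets differed by -1.21 ± 0.34 (limma adjusted p = 0.0695).

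PTGS1, the constitutive isoenzyme, had 4 probe sets, all with negative differences between -1.09 and -0.53. The brightest, 215813_s_at, gave 245.2, 187.3 and 194.1 in NS398 arrays, against 479.2, 245.0 and 229.2 in control arrays. The groups overlapped, and control replicate 1 stood far above the other controls. The difference was -0.53 ± 0.29 (95% interval -1.17 to 0.11, limma adjusted p = 0.377), and with single arrays left out it ran from -0.72 (without control replicate 3) to -0.19 (without control replicate 1).

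The other PTGS1 probe sets were no more decisive. For 205128_x_at, of the kind that may bind related transcripts, NS398 arrays gave 146.5, 220.5 and 254.5 and control arrays 350.7, 258.3 and 283.4, which did not overlap by a margin of a few units (difference -0.55 ± 0.26, limma adjusted p = 0.285). For 238669_at the NS398 arrays gave 107.7, 213.2 and 43.7 and the control arrays 350.0, 285.4 and 86.5, with broad overlap (-1.04 ± 0.60, adjusted p = 0.412). For 205127_at the NS398 arrays gave 28.2, 15.2 and 61.4 and the control arrays 97.6, 33.1 and 79.0, partly within the trpX range (-1.09 ± 0.68, adjusted p = 0.449). Read over its 4 probe sets together, PTGS1 differed by -0.80 ± 0.29 (limma adjusted p = 0.147).

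The change of PTGS2 relative to PTGS1 was then taken within each array, where any scaling of the array cancels. The log2 ratio of PTGS2 to PTGS1 (brightest probe set of each) was -0.73, -0.40 and -1.35 in NS398 arrays, against -1.38, 0.64 and 0.52 in control arrays. Control replicate 1 had the lowest value of all 6 arrays, so the groups overlapped, and only the difference between groups is meaningful because the probe sets have different affinities. It was -0.76, with group values of -0.83 ± 0.48 in NS398 and -0.073 ± 1.14 in control arrays (SD, n = 3 each, exact permutation p = 0.4, two-sided). Without control replicate 1 it was -1.41 (exact permutation p = 0.1, the smallest that 3 against 2 arrays allow), and without control replicate 2 it was -0.40.

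PTGES, the inducible microsomal synthase that acts together with PTGS2, had 2 dim probe sets. For 210367_s_at the NS398 arrays gave 50.1, 53.7 and 28.1 and the control arrays 96.4, 98.3 and 101.2. Every NS398 array lay below the tightly grouped controls, and the difference was -1.22 ± 0.44 (95% interval -2.18 to -0.26, limma adjusted p = 0.144). For 207388_s_at the NS398 arrays gave 88.6, 108.7 and 15.3 and the control arrays 62.9, 77.2 and 106.3. This probe set overlapped, its difference of -0.60 ± 0.68 had an adjusted p of 0.715 by limma, and without NS398 replicate 3 its sign turned to 0.29.

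The other prostaglandin E synthases were brighter and had smaller differences. PTGES2, a membrane-associated synthase, gave 910.8, 1199.4 and 1264.6 in NS398 arrays, against 1229.7, 599.1 and 718.6 in control arrays on 218083_at. Control replicate 1 lay among the NS398 arrays, and the difference was 0.46 ± 0.24 (95% interval -0.07 to 0.99, limma adjusted p = 0.352). Without control replicate 1 it was 0.76 and passed (adjusted p = 0.0283), and this was the single alternative of 18 in which it did.

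PTGES3, a cytosolic synthase that is better known as the HSP90 co-chaperone p23, gave 19984.0, 19054.6 and 18750.2 in NS398 arrays, against 21375.5, 23663.4 and 21434.3 in control arrays on 200627_at. All NS398 arrays lay below all controls, by a small step. The difference of -0.20 ± 0.082 (1.15-fold, 95% interval -0.38 to -0.021) did not pass (limma adjusted p = 0.208) and passed only after quantile normalisation (-0.27, adjusted p = 0.0211). RefSeq lists 5 pseudogenes of PTGES3, and the part of their transcripts in this signal was not tested.

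**Figure D3:**
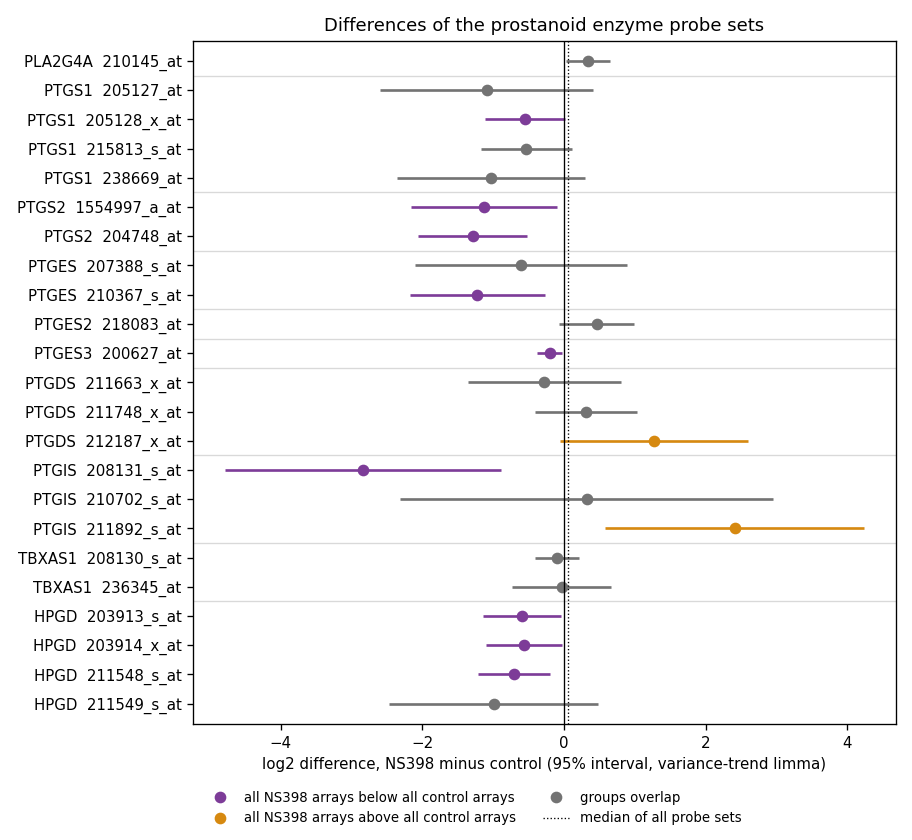
Log2 difference, NS398 minus control, of each of the 23 probe sets with its 95% interval from variance-trend limma, in purple where all NS398 arrays lie below all control arrays (9), in orange where they lie above (2) and in grey where the groups overlap, and a dotted line at the median of all probe sets (0.063). The intervals of the dim PTGIS probe sets are the widest and point both ways.

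PTGDS, the lipocalin-type synthase of prostaglandin D, had 3 probe sets that disagreed in sign, with differences between -0.28 and 1.28. All are of the kind that may bind related transcripts. The brightest, 211748_x_at, gave 250.2, 187.4 and 166.7 in NS398 arrays, against 98.4, 215.0 and 192.0 in control arrays, with overlap (0.31 ± 0.33, limma adjusted p = 0.685). For 212187_x_at the NS398 arrays gave 72.5, 55.6 and 60.5, above control signals of 18.4, 47.7 and 19.6 that lay within the trpX range (1.28 ± 0.60, adjusted p = 0.292). For 211663_x_at the NS398 arrays gave 101.4, 33.4 and 121.1 and the control arrays 98.6, 82.7 and 89.2 (-0.28 ± 0.49, adjusted p = 0.833). The sign of 211748_x_at turned without control replicate 1 (-0.034), and that of 211663_x_at turned without NS398 replicate 2 (0.30).

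PTGIS, which makes prostacyclin, mainly in vessel walls, was at background throughout. Its probe set 208131_s_at gave 3.5, 3.1 and 11.2 in NS398 arrays, against 33.5, 33.5 and 39.4 in control arrays (-2.84 ± 0.89, limma adjusted p = 0.0917). Its probe set 211892_s_at went the other way, with 43.3, 39.9 and 44.7 in NS398 arrays, against 5.1, 16.5 and 6.1 in control arrays (2.41 ± 0.83, adjusted p = 0.129). Both pairs of groups were fully separated, yet every one of these signals was below 49.9, the highest trpX signal. The remaining probe set, 210702_s_at, gave 3.1, 2.7 and 40.5 in NS398 and 2.1, 12.5 and 6.6 in control arrays (0.32 ± 1.20, adjusted p = 0.929). Averaged over the 3 probe sets the difference was -0.034 ± 0.77 (adjusted p = 0.990). With signals below 16 set to 16, both 208131_s_at (-1.14, adjusted p = 0.0140) and 211892_s_at (1.40, adjusted p = 0.00886) passed, still in opposite directions.

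TBXAS1, the synthase of thromboxane, which is best known from platelets, showed the smallest differences of the set. On 208130_s_at it gave 848.4, 820.6 and 939.4 in NS398 arrays, against 889.7, 848.2 and 1059.9 in control arrays. The groups overlapped, and the 95% interval of the difference of -0.097 ± 0.14 was -0.41 to 0.22 (limma adjusted p = 0.794). On 236345_at the NS398 arrays gave 131.2, 112.4 and 162.2 and the control arrays 105.5, 193.9 and 124.1 (-0.029 ± 0.32, interval -0.73 to 0.67, adjusted p = 0.978). Of the 4 platelet markers, PPBP had mean signals of 2.07 in NS398 and 2.44 in control arrays, at background. The others were PF4 (87.5 in NS398 and 22.0 in control arrays), GP9 (94.2 and 61.7) and ITGA2B (64.8 and 78.5), none of them called. For PF4 every NS398 array lay above every control array (limma adjusted p = 0.0506), and its control signals lay within the trpX range.

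HPGD, the dehydrogenase that inactivates prostaglandin E, had negative differences on all 4 probe sets, between -0.99 and -0.57, and on 3 of them every NS398 array was below every control array. The brightest, 211548_s_at, gave 156.5, 196.5 and 137.1 in NS398 arrays, against 255.1, 256.2 and 278.9 in control arrays. The means of 162 in NS398 and 263 in control arrays differed by -0.70 ± 0.23 (1.63-fold, 95% interval -1.21 to -0.19, limma adjusted p = 0.111). It passed in 1 of 18 alternatives, when testing was limited to a mean log2 signal over 7 (adjusted p = 0.0478).

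The other HPGD probe sets gave similar sizes. For 203913_s_at the NS398 arrays had 161.8, 130.0 and 135.9 and the control arrays 220.8, 251.2 and 176.8 (-0.59 ± 0.25, limma adjusted p = 0.232). For 203914_x_at the NS398 arrays had 208.1, 149.5 and 149.6 and the control arrays 254.0, 279.6 and 212.2 (-0.57 ± 0.24, adjusted p = 0.240). For the dimmer 211549_s_at the NS398 arrays had 123.0, 15.3 and 99.0 and the control arrays 103.5, 123.6 and 114.2 (-0.99 ± 0.67, adjusted p = 0.494). Here NS398 replicate 2 decided the value, and without it the difference was -0.040. The mean over all 4 probe sets differed by -0.71 ± 0.27 (limma adjusted p = 0.165).

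The transcripts of PTGS2 and HPGD were compared as their log2 ratio within each array, since both genes had negative differences. This ratio of RNA signals leaves out the other enzymes and does not measure prostanoid synthesis or breakdown. It was -0.085, -0.47 and -0.85 in NS398 arrays, against -0.47, 0.58 and 0.24 in control arrays. NS398 replicate 1 lay above control replicate 1 and the groups overlapped. The difference was -0.58 (exact permutation p = 0.2, two-sided, smallest possible 0.1), with group values of -0.47 ± 0.38 in NS398 and 0.11 ± 0.54 in control arrays (SD, n = 3 each). It was -0.35 without control replicate 2 and -0.88 without control replicate 1.

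**Figure D4:**
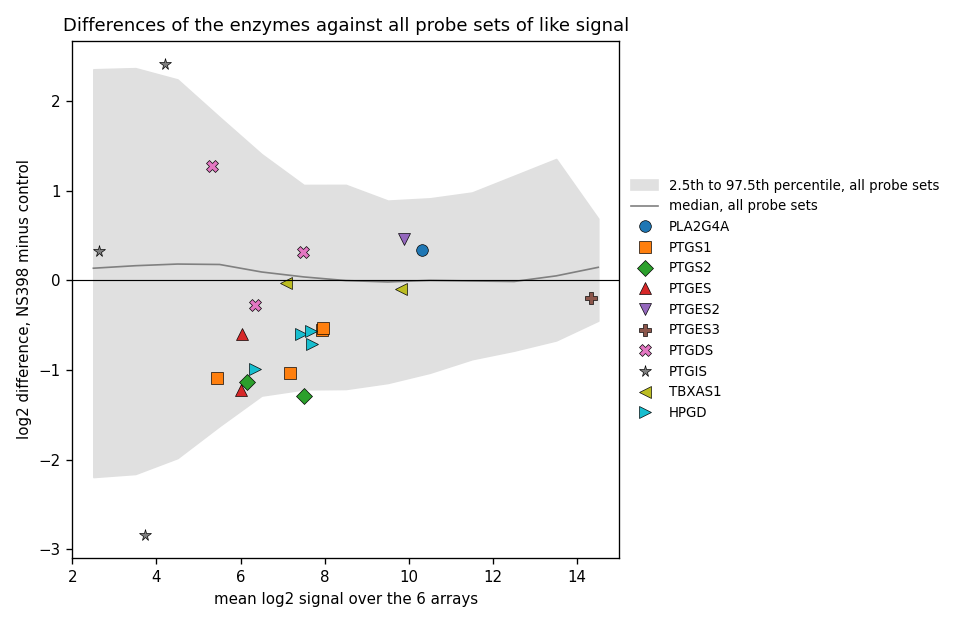
Log2 difference, NS398 minus control, against the mean log2 signal over the 6 arrays for the 23 probe sets (symbols by gene), with the 2.5th to 97.5th percentile (grey) and median (line) of all probe sets in bins of 1 log2 unit of signal. Of the members 20 lie within this range, PTGS2 204748_at and PTGIS 208131_s_at lie below it and PTGIS 211892_s_at above it.

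Set against all probe sets of like signal, 20 of the 23 members lay within the central 95% of differences, 2 lay below it and 1 above. That range is drawn from all probe sets, called ones included. The central 95% of differences ran from -1.21 to 1.06 among probe sets with a mean log2 signal between 7 and 8, where PTGS2 204748_at had -1.29, and from -0.45 to 0.69 above 14, where PTGES3 had -0.20. The percentiles are a description of these 6 arrays. The ACTB 3'/5' ratio also separated the groups (1.45 to 1.71 in NS398 and 1.27 to 1.32 in control arrays), whereas the GAPDH ratio overlapped. The 18S ribosomal RNA signal was far higher in NS398 replicates 1 and 2 than in the other arrays. The part of RNA quality in the member differences was not tested.

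In 7 lists of related genes 37 of 244 probe sets were called (15.2%, against 6.43% of all probe sets). Of the 22399 brighter probe sets on the array (mean log2 over 7), 14.6% were called in the same fit. Whether the lists exceed others of like signal was not tested, and earlier results of these data were known when they were chosen. Of the 37 called, 22 were higher and 15 lower. The balance turned with median centring, which gave 14 higher and 22 lower, and plain limma called 2. The alternatives were run for the brightest probe sets of genes chosen by their p, and not for genes named after their values were seen. Among 22 measured genes that release or re-esterify arachidonate, read from 43 probe sets, 6 probe sets rose and 0 fell, and these were all 4 of PLA2G12A and both of MGLL. PLA2G12A, a secreted phospholipase A2, gave 3023.0, 2543.2 and 3000.1 in NS398 arrays, against 1870.9, 1824.9 and 1781.8 in control arrays on its brightest probe set (0.64 ± 0.11, limma adjusted p = 0.00654). This call held in 15 of 18 alternatives and was lost after median centring (0.52, limma adjusted p = 0.0719), after an offset on centred values and with plain limma (adjusted p = 0.193). MGLL, the lipase that frees arachidonate from the endocannabinoid 2-arachidonoylglycerol, gave 3340.2, 3313.4 and 3556.2 in NS398 and 2489.0, 1772.6 and 1766.0 in control arrays (0.78 ± 0.14, limma adjusted p = 0.00736), called in 16 of 18 alternatives but neither with the floor of 16 (adjusted p = 0.0764) nor with plain limma (adjusted p = 0.202). The groups were separated for both genes, and the list's median over brightest probe sets was -0.058.

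Of 15 genes listed as other prostaglandin synthases and reductases (30 probe sets), 4 rose and 0 fell on their brightest probe set, with a median of 0.33. Prostaglandin conversion by their products was not measured. AKR1C3, which reduces prostaglandins D and H to F-type products, gave 21633.9, 17909.6 and 17695.0 in NS398 arrays, against 5410.3, 5143.1 and 6093.3 in control arrays (1.78 ± 0.11, limma adjusted p = 1.00e-05). Its near-identical relatives AKR1C1 (2.97) and AKR1C2 (3.17), whose probe sets may share transcripts, and AKR1B10 (1.47) also rose. AKR1C1 was called in 18 of 18 alternatives, and the other 3 genes in each but plain limma (adjusted p = 0.0651 to 0.0706). Over all probe sets, 8 rose and 2 fell. Those that rose belong to these 4 genes and to PTGR1 (0.98, limma adjusted p = 0.011), and those that fell belong to PTGR3 (-0.70 and -0.88). PTGR1 and PTGR3 are prostaglandin reductases, named after their values were seen, and neither was called on its brightest probe set.

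Of 14 lipoxygenase and leukotriene genes only LTA4H, the hydrolase that makes leukotriene B, rose (0.35 ± 0.088, limma adjusted p = 0.0376). It was called in 7 of 18 alternatives, not after median centring (limma adjusted p = 0.404) and not when any single array other than control replicate 1 was omitted (adjusted p 0.0522 to 0.173), and the list's median was 0.21. Of 13 prostanoid receptors and transporters only the EP1 receptor gene PTGER1 rose, on 1 of its 3 probe sets. It gave 257.2, 275.1 and 210.9 in NS398 and 59.4, 77.0 and 19.4 in control arrays (2.46 ± 0.48, limma adjusted p = 0.0105), with a control mean of 44.6 within the trpX range. The mean over its 3 probe sets differed by 0.77 (limma adjusted p = 0.445). Its call was also lost without NS398 replicate 1 or NS398 replicate 2 (limma adjusted p = 0.0547 and adjusted p = 0.0571), with the floor and with plain limma. The median of that list was 0.58.

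Factors that act on PTGS2 moved in both directions. Of 16 transcription factors known to bind its promoter, CEBPB and CEBPD, the factors of the C/EBP site, rose by 1.32 ± 0.10 and 0.78 ± 0.13 (limma adjusted p = 4.14e-05 and 0.00507). The AP-1 subunits FOS and JUN fell by 1.03 and 0.60 on the log2 scale (adjusted p = 0.00236 and 0.0124), and EGR1, named after its value was seen, fell by 0.67 (adjusted p = 0.0276). Plain limma called none of CEBPB, CEBPD, FOS and JUN (adjusted p 0.0897 to 0.271). CEBPD was also lost after median centring (limma adjusted p = 0.0504), and JUN without NS398 replicate 1 (adjusted p = 0.0514) or control replicate 3 (adjusted p = 0.0756). FOS was also lost with the floor (adjusted p = 0.0735), as was JUN (adjusted p = 0.109), and in the mean over all its probe sets neither CEBPD (adjusted p = 0.0715) nor JUN (adjusted p = 0.0706) passed. FOS gave 6225.1, 10280.7 and 8414.9 in NS398 arrays, against 18002.4, 15996.3 and 15965.5 in control arrays. Over 49 probe sets 3 rose and 5 fell, and the remaining riser was a dim probe set of ATF2, named after its value was seen. The median of this list was -0.077.

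Of 7 genes for proteins that bind PTGS2 mRNA, none passed on its brightest probe set (median -0.33), while 6 of 34 probe sets fell and 0 rose. They were 4 of HNRNPD, which promotes decay of AU-rich mRNAs, and 2 of TIA1, a translational silencer, both named after their values were seen, with differences between -1.64 and -0.41. Of 9 genes of HSP90 and its other co-chaperones, the partners of PTGES3, PPID (0.55) and FKBP4 (0.48) rose on their brightest probe set, with a median of 0.13, but PPID was called in 9 and FKBP4 in 7 of 18 alternatives. Neither passed after median centring (limma adjusted p = 0.187 and adjusted p = 0.281) or with plain limma (adjusted p = 0.250 and adjusted p = 0.326). The mean over all probe sets was 0.18 for PPID (limma adjusted p = 0.516) and -0.27 for FKBP4 (adjusted p = 0.549). Single arrays decided both calls, PPID being lost without any NS398 replicate or control replicate 2 (limma adjusted p 0.0513 to 0.0904) and FKBP4 without any NS398 replicate, control replicate 2 or control replicate 3 (adjusted p 0.0819 to 0.145). Over 28 probe sets of that list 3 rose, and the 2 that fell belong to HSP90AA1 (-0.67 and -0.34), named after its values were seen.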

How the data were processed

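Total RNA of 6 HT29 samples was hybridised on 1 array each. The deposited values are linear intensity values, 1 signal per probe set, which the authors summarised and scaled so that each array has a mean of 500 once its 2% highest and lowest values are trimmed. They do not match the quantile-normalised gcRMA values of the study's methods and have the form of MAS 5.0 signals. The affy package is named in the submitters' processing notes, its version is not given in the sources used here, and scans were not used here. Groups and replicate numbers came from the sample titles. Probe sets were named by the platform annotation (1 gene for 41097, several for 1801, none for 11777), and promoter sequences came from RefSeq (GRCh38.p14).

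Signals were taken to log2 with no offset and fitted with lmFit and eBayes of limma 3.58.1 (R 4.3.3), using a variance trend, robust estimation (7.07 prior degrees of freedom in the median) and treatment as the only term, adjusted by Benjamini-Hochberg over 54675 probe sets at 0.05. Plain eBayes (1.36 prior degrees of freedom) was an alternative. Ratios within arrays were compared by an exact permutation test. All members and their probe sets are named, and up to 4 called genes of each pathway list with the smallest p. The members, lists and tests were chosen with earlier results of these data known. The NF-kB consensus (searched on both strands) replaced a narrower pattern that had been written from the PTGS2 promoter itself. The procedure was tested on simulated data, of which no outcome is given here, and figures were drawn with matplotlib 3.10.9. The number of arrays limits the precision.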

Additional observations from a re-analysis of the deposited data

How the results depend on the processing

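Over 389 values of the 23 member probe sets under the alternatives, 13 passed the threshold, from 6 probe sets. The count of member probe sets called was 0, and it became 1 with median centring, 2 with quantile normalisation, 1 and 2 with a mean log2 signal above 4 or 7, 1 with an offset of 32, 2 with a floor of 16, 1 with array weights and 1 with an offset after median centring, an alternative chosen after seeing the data. Leaving out single arrays gave 0 to 2, the 2 being PTGS2 204748_at and PTGES2 when control replicate 1 was left out. The count over all probe sets, 3513, was 24 with plain limma, 2296 with the floor and 1826 to 3984 without single arrays. Among NS398 arrays, omitting replicate 1 gave 1826, replicate 2 gave 1896 and replicate 3 gave 2340, and omitting control replicate 3 gave 1876. The 37 called probe sets of the pathway lists became 2 with plain limma, 16 with the floor and 20 to 42 without single arrays, with 20 when NS398 replicate 1 or control replicate 3 was omitted and 24 when NS398 replicate 3 was.

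Signs turned in 6 member probe sets and none turned under median centring or quantile normalisation. With single arrays omitted, PTGES 207388_s_at ran from -1.12 to 0.29, PTGDS 211663_x_at from -0.63 to 0.30, PTGDS 211748_x_at from -0.034 to 0.53, PTGIS 210702_s_at from -0.95 to 1.01 and TBXAS1 236345_at from -0.21 to 0.23. PTGIS 210702_s_at was -0.0045 with array weights, and averaged over every probe set of its gene PTGIS 211892_s_at turned to -0.034 and FKBP4 to -0.27. The cause was not tested. Whether same-numbered arrays share a culture or a run is not stated. The deviations of such pairs from their group means had r of -0.14 to -0.063, none best with its own number. So few arrays cannot decide whether they were paired. With the replicate number as a block 0 member probe sets, 2462 of all probe sets and 31 list probe sets passed, and PTGS2 204748_at had a limma adjusted p of 0.0766. For both ratios the block gave an exact permutation p = 0.5.

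In 7 of the 23 member probe sets at least 1 group mean lay under 49.9, the highest trpX signal, and their differences are poorly determined.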
